A study of Mus musculus with 2 samples.

Results

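The integrin and laminin genes described here are the 39 of 32285 measured genes whose symbols name an integrin or laminin chain. They were taken by symbol alone, though the group was chosen with earlier results of these data known. They comprise 18 integrin alpha chains, 9 integrin beta chains, 11 laminin chains and Itgbl1, which codes for a secreted protein that resembles the stalk of a beta chain. The genes were read in 2 single-cell libraries of mouse tumours formed by MC38 cells, a line derived from a colon adenocarcinoma. The control library is labelled Mbtps1 WT, and the other is labelled Mbtps1 KD and SHM, and is called a knockout in the series text. Control and knockdown name these libraries in what follows. Mbtps1 codes for site-1 protease, a Golgi enzyme that releases transcription factors of the SREBP and ATF6 families from the membrane. The labels used here give no host strain, age, tumour time point or number of pooled animals, nor whether the knockdown line is 1 clone.

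Integrins are receptors built from an alpha and a beta chain, and they hold cells to the matrix or to other cells and signal from those contacts. The alpha chain largely sets the ligand, which is collagen for alpha 1, 2, 10 and 11, laminin for alpha 3, 6 and 7, and proteins with an RGD motif such as fibronectin for alpha 5, 8, v and IIb. Leukocytes carry alpha chains paired with beta 2 and beta 7, while alpha v paired with beta 6 or beta 8 releases active TGF-beta from its latent complex. Laminins are matrix proteins of an alpha, a beta and a gamma chain that form basement membranes. Lama3 and Lamb3 code for chains of the laminin under the epidermis, which alpha 6 beta 4 integrin binds, and the chains of Lama4 with Lamb1 and Lamc1 form a laminin of vessel walls.

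The promoters of a few members are shown first, because these are the genes whose tumour values are followed through the clusters below. Itgbl1 was the most abundant member above 1.5-fold in knockdown tumour-like cells, Itgb8 was below it, and Itgav codes for the partner chain of Itgb8. Each window runs from 250 bases before to 50 bases after the start given by RefSeq on GRCm38.p6, 5′ to 3′ on the strand of the gene. Capitals mark a CCAAT box (CCAAT) or a GC box (GGGCGG), searched on both strands. The windows are chr14:123659890-123660189 on the plus strand for Itgbl1, chr12:119238227-119238526 on the minus strand for Itgb8 and chr2:83724147-83724446 on the plus strand for Itgav.
Itgbl1: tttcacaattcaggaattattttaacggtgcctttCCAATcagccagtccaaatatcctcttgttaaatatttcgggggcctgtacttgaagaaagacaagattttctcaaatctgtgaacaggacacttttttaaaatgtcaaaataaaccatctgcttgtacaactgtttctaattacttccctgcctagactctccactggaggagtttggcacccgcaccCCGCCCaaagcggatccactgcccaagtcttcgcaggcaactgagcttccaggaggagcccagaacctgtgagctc
Itgb8: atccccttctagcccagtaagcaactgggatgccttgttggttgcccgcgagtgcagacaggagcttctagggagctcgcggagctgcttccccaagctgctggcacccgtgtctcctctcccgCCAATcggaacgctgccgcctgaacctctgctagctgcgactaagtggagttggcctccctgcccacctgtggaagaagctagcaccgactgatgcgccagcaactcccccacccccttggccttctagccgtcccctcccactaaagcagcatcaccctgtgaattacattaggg
Itgav: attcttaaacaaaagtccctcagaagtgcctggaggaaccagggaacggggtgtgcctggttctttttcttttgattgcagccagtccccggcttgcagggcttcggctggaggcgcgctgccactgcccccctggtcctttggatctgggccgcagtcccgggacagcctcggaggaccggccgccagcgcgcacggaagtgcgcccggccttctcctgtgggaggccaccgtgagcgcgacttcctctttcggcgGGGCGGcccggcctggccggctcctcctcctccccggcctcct

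The RefSeq table held 28 promoters for 25 of the 39 members. A CCAAT box was found in 5 of the 28 and in 37.4% of all 32851 promoters, and a GC box in 13 of the 28 and in 35.7% of all. Sites of the factors that site-1 protease releases were also searched. The SREBP motif TCACNCCAC was found in 1 member promoter, that of Itgb2l, and in 1.24% of all promoters, and the ATF6 motif TGACGTGG in 0 member promoters and in 0.676% of all. The AP-1 motif TGANTCA was found in the promoters of Itga3, Itga9 and Itgax and in 7.81% of all. The exons of 12 of the 39 members overlap another annotated gene. For 9 members such a gene lies on the opposite strand, as do Cerkl for Itga4, Mettl7b for Itga7 and Gm13684 for Itgav. For 4 members it lies on the same strand, with Itgad in both groups, and these same-strand genes are not among the measured genes. The strand setting of the counting was not given, so how far the overlaps touch the counts is not known. These motif matches describe letters in a short window and not binding.

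The control library gave 11202 cells with a median of 8169 UMIs (unique molecular identifiers, 1 for each captured RNA molecule), and the knockdown library gave 15908 cells with a median of 4922 UMIs. The kit reads the 3' end of each RNA, so levels do not scale with gene length. The 2 libraries shared 46 cell barcodes. UMIs were summed over the cells of a class in each library and given as CPM, the UMIs of a gene divided by all UMIs of that class in the library and multiplied by 1e6. A ratio is knockdown CPM divided by control CPM, and the interval after it is a 95% interval that covers counting error only. In pairs of values, control stands first. There is 1 library per group and therefore no test between groups. A gene with at least 50 UMIs over both libraries was counted as higher or lower where its ratio passed 1.5-fold, and the share of all genes counted the same way is given beside each count. As a check of the labels, Mbtps1 had 28.8 CPM in control and 12.3 CPM in knockdown tumour-like cells (ratio 0.428, 0.400 to 0.458), while its ratio was 0.994 (0.875 to 1.13) in macrophage/monocyte-like cells. RNA from broken cells reaches all droplets, and the CPM that this free RNA would give in a class is called its free-RNA level below.

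The members differed in level between the cell classes. Itgb1, the beta chain shared by most matrix receptors, was detected at 83.3 CPM or more in each of 10 classes and both libraries. By mean CPM over both libraries, 9 members were highest in epidermis-like cells, 8 in fibroblast-like, 5 in endothelial-like, 5 in T-like, 4 in pericyte/smooth muscle-like, 3 in macrophage/monocyte-like, 3 in dendritic-like and 1 in neutrophil-like cells, and 0 were highest in tumour-like cells. Itgb2l, a relative of the leukocyte beta 2 chain, had 0 UMIs in every class. Itga10, Itga2b, Itga8, Itgad and Lama1 had a mean over both libraries of at most 12.3 CPM in each class.

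**Figure D1:**
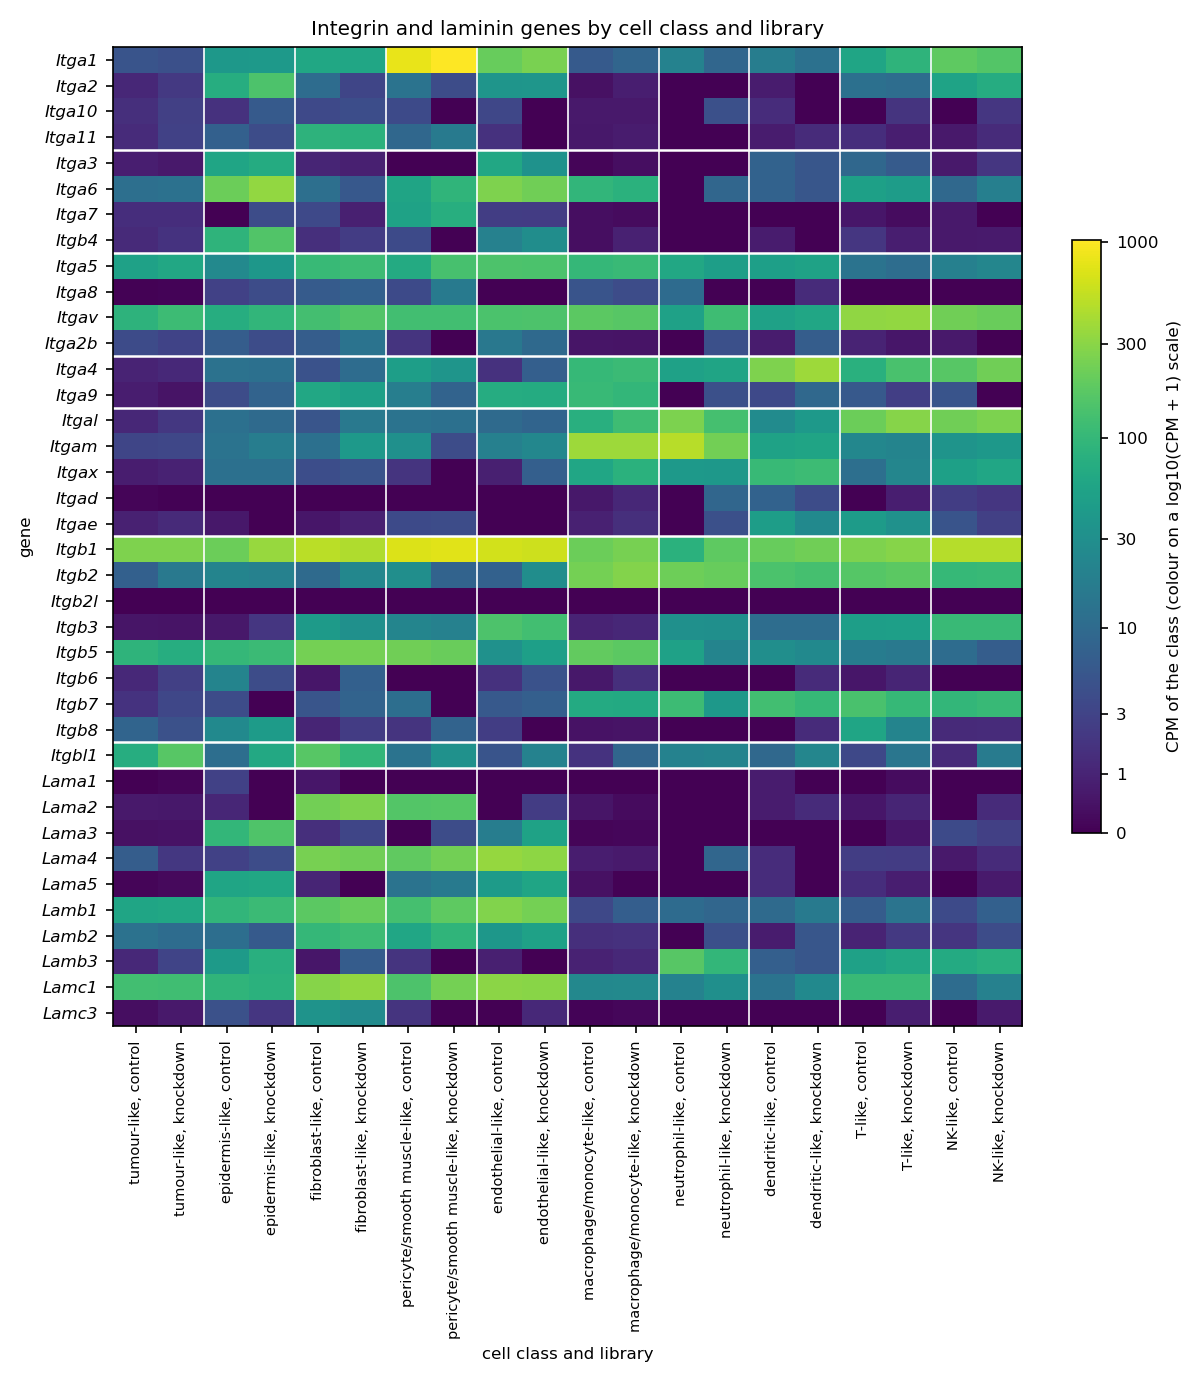
Colour gives the CPM of the genes (rows, by role) in 10 cell classes and 2 libraries (columns, control left of knockdown), on a log10(CPM + 1) scale. Itga1 reaches 821 and 1020.4 CPM in pericyte/smooth muscle-like cells, Itgam 371 and 371 CPM in macrophage/monocyte-like cells and Itgbl1 74.0 and 166 CPM in tumour-like cells, while Itgb2l is dark throughout.

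The tumour-like cells numbered 4348 in control and 6723 in knockdown, with medians of 21963 and 14014 UMIs. Markers of colon epithelium were at or near 0 in them, with Epcam at 0.0680 and 0.0601 CPM, Krt8 at 0.272 and 0.561 CPM and Cdx2 at 0 in both libraries. The highest members were Itgb1 at 266 and 269 CPM (ratio 1.01, 0.994 to 1.03), Lamc1 at 123 and 122 CPM (ratio 0.989, 0.965 to 1.01), Itgbl1, Itgav, Itgb5, Lamb1 and Itga5, in that order of mean CPM. Of 39 members, 34 passed 50 UMIs. Among these 34, 11 were at least 1.5-fold higher in knockdown, where 11.1% of all 15266 genes counted were, and 3 were at least 1.5-fold lower, where 4.28% of all genes were. The median log2 ratio was 0.26 over the 34 members and 0.06 over all genes counted.

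Itgbl1 and the beta chains that pair with alpha v differed in both directions. Itgbl1, whose protein lacks the ligand-binding head of an integrin, had 74.0 and 166 CPM (ratio 2.25, 2.19 to 2.31). Its share of cells with a UMI was 46.6% in control and 62.1% in knockdown at the cells' own depth. With each cell thinned to 1000 UMIs, it was 6.53% (5.81 to 7.31) and 13.8% (13.0 to 14.7). In macrophage/monocyte-like cells, with medians of 6036 and 3712.5 UMIs, the thinned shares were 0.147% and 1.09%. Itgb8, which pairs with alpha v alone, was lower in knockdown at 8.39 and 4.59 CPM (ratio 0.547, 0.488 to 0.614). Itgb6, another partner of alpha v, was higher at 1.21 and 2.72 CPM (ratio 2.24, 1.80 to 2.79). Its UMIs lay in few cells, 63 of 4348 in control and 147 of 6723 in knockdown. Cells with 3 or more UMIs, 11 in control and 17 in knockdown, held 51.2% and 38.4% of them. Itgb5, a further partner of alpha v, lay between at 89.2 and 74.2 CPM (ratio 0.832, 0.807 to 0.858). Itgb1 had a ratio whose interval held 1. Itgb3, the beta chain of the vitronectin and platelet receptors, had 0.476 and 0.451 CPM (ratio 0.947, 0.618 to 1.45), and Itgb4, the laminin receptor chain of hemidesmosomes, had 1.25 and 1.77 CPM (ratio 1.42, 1.12 to 1.79).

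Beta chains of leukocytes were counted at low levels in tumour-like cells and were higher in knockdown. Itgb2, the common chain of the leukocyte receptors, had 7.35 and 15.3 CPM (ratio 2.08, 1.90 to 2.27), with a free-RNA level of 2.59 and 3.92 CPM. Itgb7, the chain of the gut-homing receptor, had 1.78 and 3.34 CPM (ratio 1.88, 1.56 to 2.26), with a free-RNA level of 0.964 and 1.27 CPM. Itgal, the alpha chain of LFA-1, had 1.17 and 2.07 CPM (ratio 1.77, 1.41 to 2.24), with a free-RNA level of 0.705 and 1.77 CPM, and its ratio turned to 0.657 with free RNA subtracted. In the same cells the 16 T cell markers summed to 5.63 CPM in control and 12.1 CPM in knockdown, with 12 of the 13 that passed 50 UMIs at least 1.5-fold higher and 0 of the 16 at 0. The 15 macrophage markers summed to 189 and 182 CPM, with 1 of 15 higher, 0 lower and 0 at 0. The 10 neutrophil markers summed to 38.3 and 41.6 CPM, of which Mmp9 alone gave 33.9 and 34.7 CPM (ratio 1.02, 0.976 to 1.07). Of the 9 that passed, 9 had a ratio above 1, with 3 at least 1.5-fold higher and 0 lower, and 0 of 10 were at 0. The 3 were Cxcr2, Hcar2 and S100a9, with ratios of 3.13, 2.69 and 1.89. The part of other cells in the leukocyte chains was not tested.

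Of the remaining leukocyte alpha chains, Itgam of the macrophage receptor Mac-1 had 3.27 and 3.41 CPM (ratio 1.04, 0.895 to 1.22), and its free-RNA level was 3.22 and 3.92 CPM. Itgax, a marker of dendritic cells, had 0.748 and 0.952 CPM (ratio 1.27, 0.932 to 1.74) against 0.691 and 1.12 CPM. Itga4, the receptor chain for VCAM-1, had 0.972 and 1.21 CPM (ratio 1.25, 0.950 to 1.64) against 0.935 and 1.43 CPM. These levels lay at the free-RNA level or close to it. Itga9, whose receptor binds tenascin, was counted as lower at 0.729 and 0.431 CPM (ratio 0.591, 0.397 to 0.872), but its free-RNA level of 0.777 and 0.884 CPM was above both, and its ratio was 1.13 with every cell at equal weight. Itgae, the receptor chain for E-cadherin, had 0.875 and 1.26 CPM (ratio 1.44, 1.09 to 1.91).

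The collagen receptors of tumour-like cells split into Itga1 and the others. Itga1 had 5.08 and 4.36 CPM (ratio 0.858, 0.754 to 0.976). Itga2, the collagen receptor chain of platelets and epithelia, had 1.19 and 2.13 CPM (ratio 1.79, 1.43 to 2.26), Itga10, first known from cartilage, had 1.53 and 2.67 CPM (ratio 1.75, 1.43 to 2.14), and Itga11, the fibrillar collagen receptor of mesenchymal cells, had 1.32 and 2.82 CPM (ratio 2.13, 1.73 to 2.63). All of the latter were at least 1.5-fold higher in knockdown at levels below 3 CPM. The top 1% of cells held 60.3% of Itga11 UMIs in control and 57.7% in knockdown. These were 136 UMIs in 97 of 4348 control cells and 281 in 186 of 6723 knockdown cells. At such low counts a large share in the top 1% arises in part from the counts alone. Cells with 3 or more UMIs, 11 in control and 18 in knockdown, held 33.8% and 34.5%.

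The RGD receptors carried more UMIs. Itgav, the alpha chain that pairs with beta 1, 3, 5, 6 and 8, had 87.5 and 115 CPM (ratio 1.31, 1.28 to 1.35), and Itga5, the fibronectin receptor chain, had 51.1 and 62.1 CPM (ratio 1.21, 1.17 to 1.26). Both were higher in knockdown by less than 1.5-fold. Itga2b, the platelet fibrinogen receptor chain, had 3.87 and 3.05 CPM (ratio 0.788, 0.676 to 0.917), and Itga8 did not pass 50 UMIs. Among the laminin receptors, Itga6 had 11.6 and 12.4 CPM (ratio 1.07, 0.989 to 1.16), Itga7 of muscle had 1.5 and 1.5 CPM (ratio 1.0, 0.797 to 1.27) and Itga3 had 0.787 and 0.591 CPM (ratio 0.751, 0.528 to 1.06). The intervals of all of these laminin receptor chains held 1.

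The laminin chains of tumour-like cells differed by chain. Lamb1 and Lamc1, the chains that most laminins share, had ratios of 1.03 (0.994 to 1.07) and 0.989 (0.965 to 1.01), with Lamb1 at 58.5 and 60.2 CPM. Lama4, the alpha chain that joins them in vessel walls, was the member with the lowest ratio at 6.70 and 2.06 CPM (ratio 0.307, 0.261 to 0.359), 3.26-fold lower in knockdown. Lamb3, the beta chain of the epithelial laminin, was higher at 1.22 and 3.09 CPM (ratio 2.52, 2.04 to 3.13). Lama3, the alpha chain of the same laminin, had only 0.35 and 0.411 CPM (ratio 1.17, 0.732 to 1.89). Lamb2, the beta chain of synaptic and kidney laminins, had 12.5 and 10.7 CPM (ratio 0.857, 0.789 to 0.930), Lama2 of muscle had 0.603 and 0.551 CPM (ratio 0.915, 0.625 to 1.34), and Lamc3 had 0.282 and 0.612 CPM (ratio 2.17, 1.37 to 3.5) from 29 and 61 UMIs. Lama1 and Lama5 did not pass 50 UMIs. The UMIs of Lamb3 lay in few cells, with 126 UMIs in 35 of 4348 control cells and 308 in 84 of 6723 knockdown cells.

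**Figure D2:**
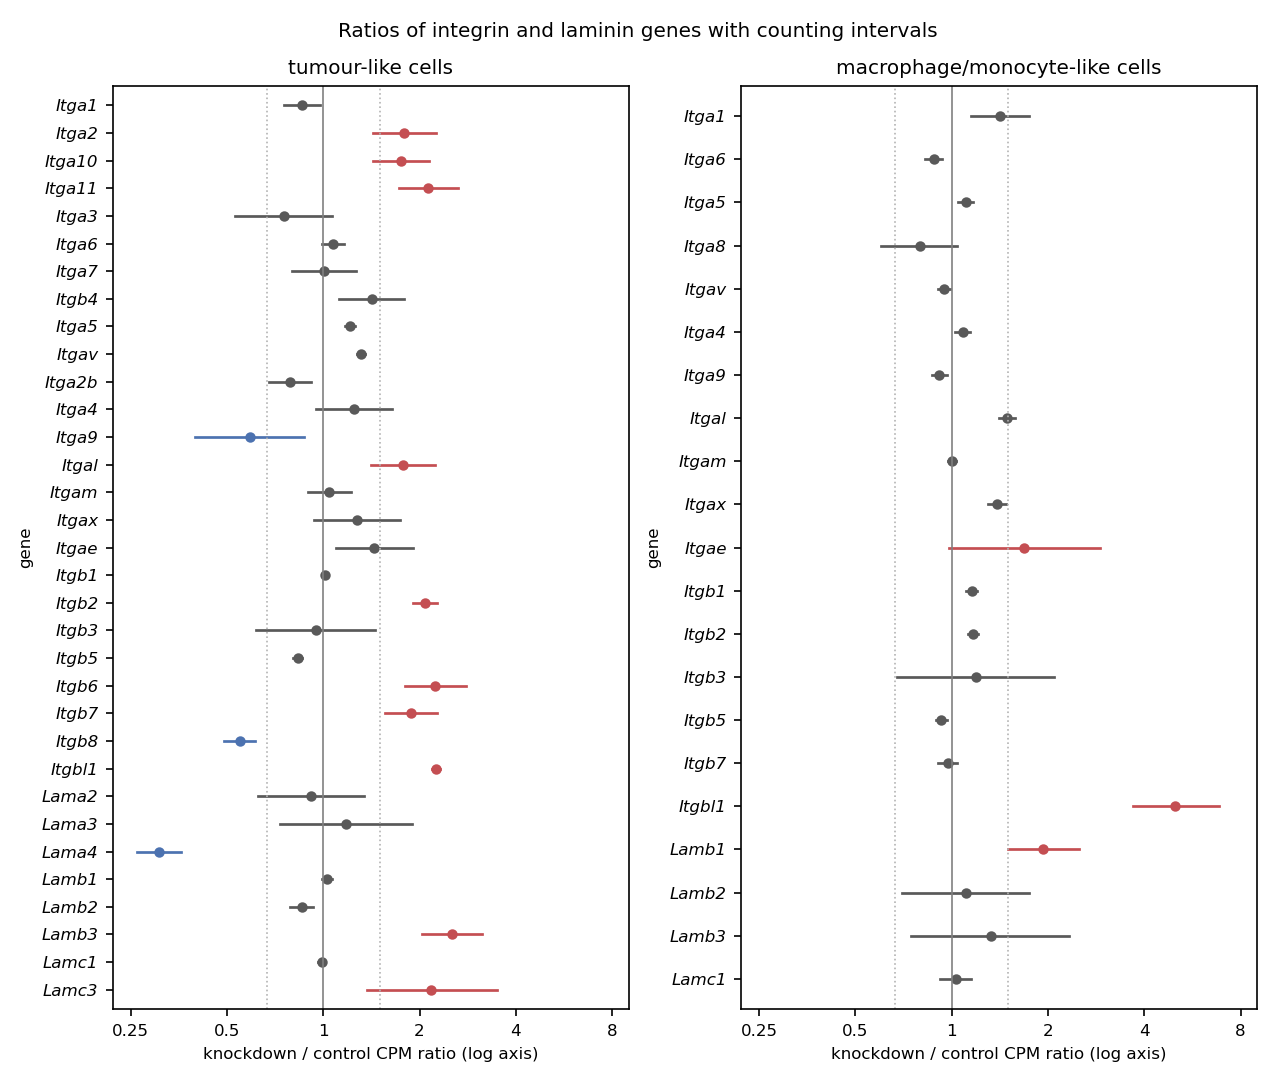
Points give the knockdown/control CPM ratio on a log axis and lines its 95% counting interval, for the members with at least 50 UMIs over both libraries that are described here, in tumour-like cells (left) and in macrophage/monocyte-like cells (right). Dotted lines mark 1.5-fold, with red above and blue below, and Lama4 at 0.307 and Itgb8 at 0.547 are the blue points of highest UMI number on the left.

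The cell types were clustered without the 39 members, and 7 tumour clusters held different shares of the libraries. Cluster 9, led by Robo2, Aspn, Ogn, Tgfb3 and H19, held 905 control and 362 knockdown cells, and cluster 12 held 716 and 300. Cluster 3 held 549 and 1666, and cluster 8 held 298 and 1106. Ratios of the whole class therefore carry both the mix of clusters and differences within them.

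Itgbl1 was higher in knockdown in 7 of 7 clusters, each with an interval above 1. Its levels were 34.9 and 58.8 CPM in cluster 0 and 32.9 and 62.4 CPM in cluster 12, and highest in cluster 8 at 151 and 313 CPM. Its highest ratio, 2.83 (2.63 to 3.05), was that of cluster 9, where the levels were 94.3 and 267 CPM. Itgav was also higher in 7 of 7 clusters, with ratios from 1.11 in cluster 8 to 1.44 in cluster 9. Itgb2 had a ratio above 1 in 7 of 7 clusters and an interval above 1 in 5. The exceptions were clusters 9 and 12, with 5.88 and 7.61 CPM (ratio 1.29, 0.858 to 1.91) and 5.17 and 6.82 CPM (ratio 1.32, 0.753 to 2.22).

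Itgb8 and Lama4 were both highest in cluster 9, where Itgb8 had 25.2 and 16.5 CPM (ratio 0.656, 0.508 to 0.838) and Lama4 had 20.2 and 13.7 CPM (ratio 0.678, 0.511 to 0.887). In cluster 10, led by the immediate early genes Egr1, Jun and Klf4, Itgb8 had 6.95 and 4.22 CPM (ratio 0.608, 0.423 to 0.872) and Lama4 6.42 and 2.18 CPM (ratio 0.339, 0.215 to 0.527). In clusters 0, 3, 7, 8 and 12 the intervals of Itgb8 held 1, with ratios from 0.796 to 1.33. Lama4 was lower in clusters 7, 9, 10 and 12 with intervals below 1, and its ratios were 1.22 and 1.12 in clusters 0 and 8. When each cluster was given the same weight, the ratio of Itgb8 was 0.784 in place of 0.547, and that of Lama4 0.621 in place of 0.307. Cluster 9 held 905 of 4348 control and 362 of 6723 knockdown cells, so its share enters both class ratios.

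For Itgb5 the clusters were split. The class ratio was 0.832, while 4 of 7 clusters had a ratio above 1 and 3 below, with 1 interval above 1 and 1 below, and the ratio at equal cluster weight was 1.09. Its highest level and ratio lay in cluster 9, at 142 and 202 CPM (ratio 1.42, 1.32 to 1.53), and its lowest ratio in cluster 10, at 84.5 and 68.6 CPM (ratio 0.812, 0.739 to 0.891). Itga5 was marked by cluster 10, which held 127 and 142 CPM (ratio 1.12, 1.04 to 1.2) against at most 52.4 and 55.1 CPM in the other clusters. Itga1 had a class ratio below 1 and a ratio above 1 in 5 of 7 clusters, with 3.83 and 6.05 CPM (ratio 1.58, 1.13 to 2.20) in cluster 7 and 11.3 and 8.92 CPM (ratio 0.787, 0.549 to 1.1) in cluster 9. Itgb6 was above 1 in 5 of 7 clusters with an interval above 1 in 2, and in cluster 3 it had 0.494 and 2.37 CPM (ratio 4.81, 2.30 to 11.6).

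**Figure D3:**
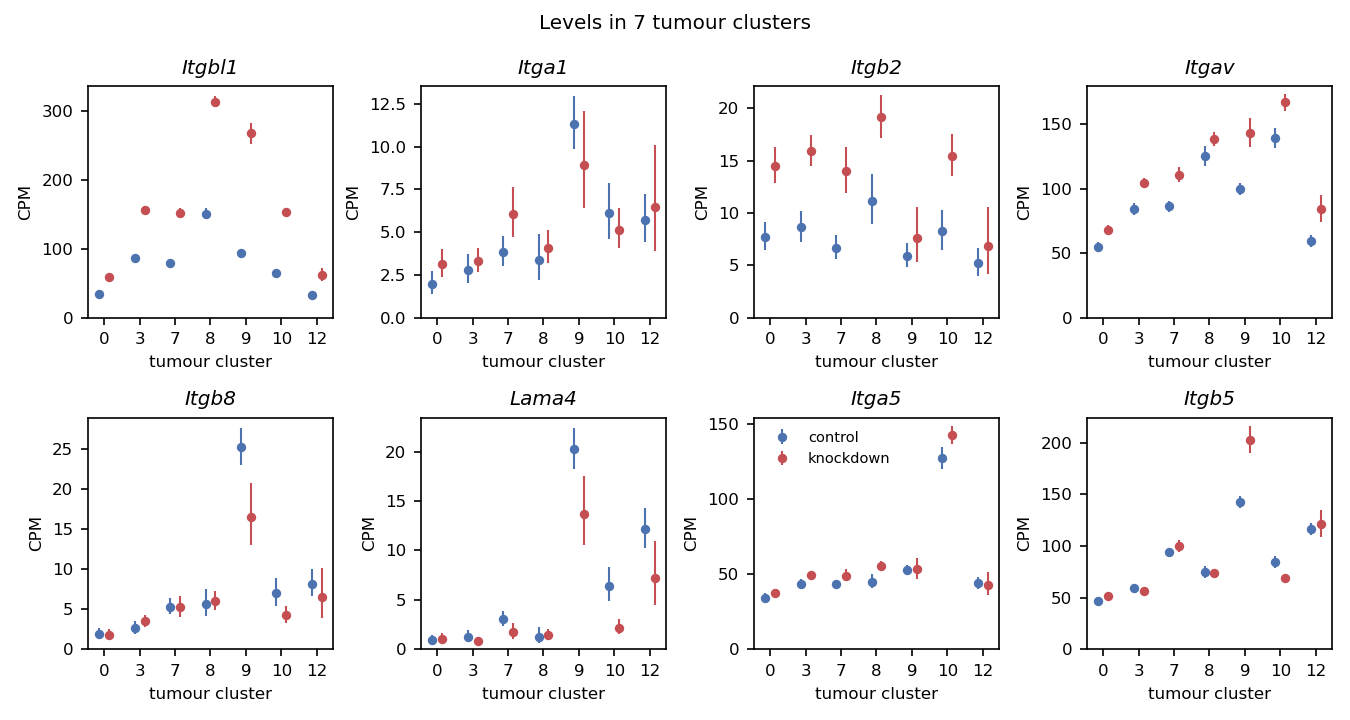
Each panel gives the CPM of a gene in 7 tumour clusters, with control in blue, knockdown in red and bars for 95% Poisson intervals. Itgbl1 and Itgav are higher in knockdown in 7 of 7 clusters, Itgb8 and Lama4 are highest in cluster 9, at 25.2 and 20.2 CPM in control, and Itga5 is highest in cluster 10.

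A list of 80 genes of integrin ligands, adaptors and membrane partners was read beside the members. In tumour-like cells 70 of the 80 passed 50 UMIs, 7 were at least 1.5-fold lower and 4 higher, where 4.28% and 11.1% of all genes counted were, and the median log2 ratio was 0.04, against 0.06 over all genes. The most abundant were Rpsa, a ribosomal protein also known as a laminin receptor, with 4015 and 3979.5 CPM (ratio 0.991, 0.987 to 0.996), the fibronectin gene Fn1 with 1419.5 and 675 CPM (ratio 0.475, 0.471 to 0.480) and the fibrillin gene Fbn1 with 394 and 494 CPM (ratio 1.25, 1.24 to 1.27). The lowest ratios were those of Tnc, whose product tenascin-C is a ligand of alpha 9 and alpha v receptors, with 20.1 and 0.852 CPM (ratio 0.0425, 0.0338 to 0.0528), Tgfb3 with 95.1 and 29.5 CPM (ratio 0.310, 0.298 to 0.323) and Lrrc32 with 1.71 and 0.652 CPM (ratio 0.381, 0.282 to 0.509). TGF-beta 3 in its latent form is freed by alpha v beta 8, and the protein of Lrrc32 holds latent TGF-beta on the cell surface. Postn, the gene of the alpha v ligand periostin, was also lower at 8.48 and 3.40 CPM (ratio 0.401, 0.352 to 0.455). The highest ratios were those of Fermt3, Parvg and Rasgrp2, with 8.47 and 17.9 CPM (ratio 2.12, 1.95 to 2.30), 0.447 and 0.882 CPM (ratio 1.97, 1.37 to 2.88) and 0.505 and 0.982 CPM (ratio 1.94, 1.38 to 2.78). These are adaptors and activators of integrins in blood cells, and Fermt3 codes for kindlin-3, which activates beta 2 integrins. Fermt2, the kindlin of other cells, had 61.3 and 37.8 CPM (ratio 0.617, 0.593 to 0.643).

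Macrophage/monocyte-like cells, 4825 in control and 5092 in knockdown, carried the beta 2 receptors and the alpha v beta 5 receptor. Of the 39 members, 22 passed 50 UMIs. Among them, 4 were at least 1.5-fold higher in knockdown, where 6.72% of all 12505 genes counted were, and 0 were lower, where 1.74% were. Their median log2 ratio was 0.18, against 0.05 over all genes counted. Itgam, the alpha chain of Mac-1, was the highest member at 371 and 371 CPM (ratio 0.999, 0.97 to 1.03). Itgb2 had 239 and 278 CPM (ratio 1.16, 1.13 to 1.21) and Itgb1 had 214 and 247 CPM (ratio 1.15, 1.11 to 1.2). Itgal was higher at 79.0 and 118 CPM (ratio 1.49, 1.41 to 1.58), just under the 1.5-fold line, which it passed with free RNA subtracted. Itgax, also known as CD11c, was higher at 59.9 and 83.0 CPM (ratio 1.39, 1.3 to 1.48).

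Of the members past 1.5-fold, those described here were at or close to their free-RNA levels or rare. Itgbl1 had 1.77 and 8.82 CPM (ratio 4.99, 3.67 to 6.87), below its free-RNA level of 3.51 and 11.8 CPM. Lamb1 had 3.54 and 6.83 CPM (ratio 1.93, 1.5 to 2.50) against 3.24 and 6.95 CPM, and Itgae had 0.90 and 1.52 CPM (ratio 1.69, 0.983 to 2.91) from 28 and 32 UMIs. The 12 tumour markers summed to 88.9 and 103 CPM in these cells, with 4 of the 7 that passed 50 UMIs higher, 2 lower and 0 of 12 at 0. H19 alone gave 60.6 and 39.7 CPM of this sum (ratio 0.655, 0.603 to 0.711), and Robo2 was the other lower marker (ratio 0.626). The 4 higher were Rgs20, Pld5, Hmga2 and Gfra2, with ratios of 5.68, 4.95, 2.86 and 2.44.

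Other members of macrophage/monocyte-like cells differed by less. The RGD and phagocytic receptor genes Itgav and Itgb5 had 179 and 169.8 CPM (ratio 0.947, 0.908 to 0.988) and 191 and 177 CPM (ratio 0.928, 0.891 to 0.967), and Itga5 had 98.9 and 109 CPM (ratio 1.11, 1.05 to 1.17). Itga4 had 103 and 111 CPM (ratio 1.08, 1.03 to 1.14), its partner Itgb7 had 67.8 and 65.9 CPM (ratio 0.972, 0.908 to 1.04), and Itga9 had 105 and 96.0 CPM (ratio 0.914, 0.865 to 0.967). The laminin receptor chain Itga6 had 95 and 83.4 CPM (ratio 0.878, 0.827 to 0.932). Lamc1 was the laminin chain of highest level at 24.1 and 24.8 CPM (ratio 1.03, 0.917 to 1.15), while its free-RNA level was 6.84 and 14.2 CPM. Less that level it had 17.3 and 10.6 CPM, and it counted as lower with free RNA subtracted. Itga1 had 6.04 and 8.53 CPM (ratio 1.41, 1.14 to 1.74) and Itga8, which binds nephronectin in the kidney, had 5.01 and 3.98 CPM (ratio 0.794, 0.602 to 1.04). Itgb3, Lamb2 and Lamb3 lay below 2 CPM with ratios of 1.19 (0.673 to 2.08), 1.11 (0.698 to 1.74) and 1.32 (0.748 to 2.33).

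Levels differed between macrophage/monocyte-like clusters 14 and 2. Cluster 14, led by Chil3, Plac8 and Hp, had Itga4 at 415 and 386 CPM (ratio 0.928, 0.807 to 1.07) and Itgal at 431 and 487 CPM (ratio 1.13, 0.991 to 1.29), and had little Itga9, at 12.9 and 9.96 CPM, and Itga6, at 13.8 and 3.98 CPM. In cluster 2, led by Pf4, C1qa and Apoe, the order was the opposite, with Itga4 at 85.4 and 97.6 CPM, Itga9 at 118 and 124 CPM and Itga6 at 123 and 105 CPM. Itgal was higher in knockdown in 6 of 7 clusters and its interval lay above 1 in 5. In clusters 1, 2, 4 and 6, which hold most cells, its ratios ran from 1.43 to 1.51. Itgax had its highest ratio in cluster 2, at 28.9 and 63.3 CPM (ratio 2.19, 1.86 to 2.58), and then in cluster 1, led by Cxcl2, Mmp12 and Arg1, at 68.5 and 104 CPM (ratio 1.51, 1.35 to 1.69). In clusters 4 and 6 its intervals held 1. The summed level of 12 dendritic markers in the class was 46.9 and 56.2 CPM, with 4 of the 8 that passed higher, 0 lower and 0 of 12 at 0. Batf3 alone gave 31.4 and 32.9 CPM of it (ratio 1.05, 0.950 to 1.16), and 8 of the 8 that passed had a ratio above 1. The highest of these was that of Xcr1, at 2.06 (1.47 to 2.89). The part of dendritic cells in the level of Itgax was not tested.

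Among the partner genes of macrophage/monocyte-like cells, 64 of 80 passed 50 UMIs, 6 were higher and 2 lower, where 6.72% and 1.74% of all genes counted were, and the median log2 ratio was 0.10, against 0.05 over all genes. The most abundant were Rpsa with 1887 and 1971 CPM (ratio 1.04, 1.03 to 1.06), the osteopontin gene Spp1 with 619 and 664 CPM (ratio 1.07, 1.05 to 1.1) and Fn1 with 552 and 601 CPM (ratio 1.09, 1.07 to 1.12). The highest ratios were those of the adaptor gene Parva with 4.18 and 10.7 CPM (ratio 2.55, 2.05 to 3.19), of Thy1 with 1.22 and 3.08 CPM (ratio 2.52, 1.67 to 3.87) and of Tgfb1i1 with 1.41 and 3.18 CPM (ratio 2.25, 1.51 to 3.36). The lowest were those of Tnc, Tgfb3 and Rap1a, at 0.502 (0.271 to 0.885), 0.571 (0.502 to 0.649) and 0.828 (0.794 to 0.862).

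In T-like cells, 550 in control and 1697 in knockdown, 20 members passed 50 UMIs. Of these, 5 were at least 1.5-fold higher, where 6.53% of all genes counted were, and 1 was lower, where 4.30% were, and the median log2 ratio of the members was 0.06. The 5 members of highest mean CPM were Itgav with 322 and 334 CPM (ratio 1.04, 0.943 to 1.14), Itgb1 with 264 and 293 CPM (ratio 1.11, 0.998 to 1.23), Itgal with 214 and 286 CPM (ratio 1.34, 1.19 to 1.5), Itgb2 with 162 and 175 CPM (ratio 1.08, 0.945 to 1.24) and Itgb7 with 138 and 102 CPM (ratio 0.738, 0.630 to 0.864). Higher in knockdown were Itga4 at 79.2 and 139 CPM (ratio 1.75, 1.46 to 2.10), Itga1 at 58.2 and 89.8 CPM (ratio 1.54, 1.25 to 1.92), Itgax at 11.5 and 23.1 CPM (ratio 2.0, 1.25 to 3.33), Lamb1 at 6.52 and 13.6 CPM (ratio 2.08, 1.11 to 4.16) and Itgbl1 at 3.51 and 14.3 CPM (ratio 4.09, 1.85 to 10.6). The levels of Lamb1 and Itgbl1 lay at or near their free-RNA levels of 7.10 and 10.5 CPM and 7.70 and 17.8 CPM. The lower member was Itgb8 at 58.2 and 22.1 CPM (ratio 0.379, 0.282 to 0.507).

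The T-like cells fell into 3 clusters whose shares differed between the libraries. Cluster 16, led by Ikzf2, Tnfrsf4, Icos and Ctla4, genes known from regulatory T cells, held 153 of 550 control and 230 of 1697 knockdown cells. It held 115 of the 116 Itgb8 UMIs of control T-like cells and 73 of the 83 of knockdown. Within it Itgb8 had 270.3 and 195 CPM (ratio 0.722, 0.531 to 0.977), its partner Itgav had 794 and 778 CPM (ratio 0.980, 0.835 to 1.15) and Lamc1 had 327 and 289 CPM (ratio 0.884, 0.681 to 1.15). The class ratio of 0.379 thus stood beside a ratio of 0.722 in that cluster. Cells of a finer subcluster with Foxp3 at 358 CPM had Itgb8 at 304 and 211 CPM (ratio 0.692, 0.497 to 0.958). The class also held a subcluster of 22 and 65 cells led by tumour genes such as H19 and Hmga2, and one of 22 and 24 cells led by Cd74 and with Lyz2 and C1qb among its leading genes. With both subclusters left out, the ratios of Itgax, Lamb1 and Itgbl1 in T-like cells stayed above 1. How much of the class values these cells gave was not tested.

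Cluster 5, led by Nkg7, Ifng and Cd3 genes, held 376 control and 1358 knockdown cells. In it Itga4 had 88.2 and 155 CPM (ratio 1.75, 1.44 to 2.14), Itga1 had 73.6 and 103 CPM (ratio 1.40, 1.13 to 1.75), Itgav had 199.7 and 292 CPM (ratio 1.46, 1.28 to 1.67), Lamc1 had 48.4 and 89.1 CPM (ratio 1.84, 1.42 to 2.41) and Itgal had 237 and 298 CPM (ratio 1.26, 1.11 to 1.43). These were higher in knockdown with intervals above 1, while Itgb7 was lower at 92.2 and 65.2 CPM (ratio 0.707, 0.568 to 0.882) and Itgb1 near 1 at 1.02 (0.910 to 1.14). Alpha 1 and alpha 4 chains are known from T cells that enter and stay in tissue. Cluster 24, with the gamma delta receptor gene Trdc among its leading genes, held 21 and 109 cells and had Itgae at 131 and 226 CPM (ratio 1.72, 0.789 to 4.26). Itgae was low in cluster 5, at 7.96 and 11.5 CPM, and was 159.8 and 123 CPM in cluster 16. The 15 macrophage markers summed to 1658 and 1556 CPM in T-like cells, with 6 of 15 lower, 0 higher and 0 at 0, set here beside the values of Itgax. Ly6c2 alone gave 404 and 584 CPM of this sum (ratio 1.44, 1.33 to 1.57), and 3 of 15 had a ratio above 1. Among the 6 lower, C1qa and C1qb had ratios of 0.647 (0.569 to 0.736) and 0.605 (0.533 to 0.688).

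**Figure D4:**
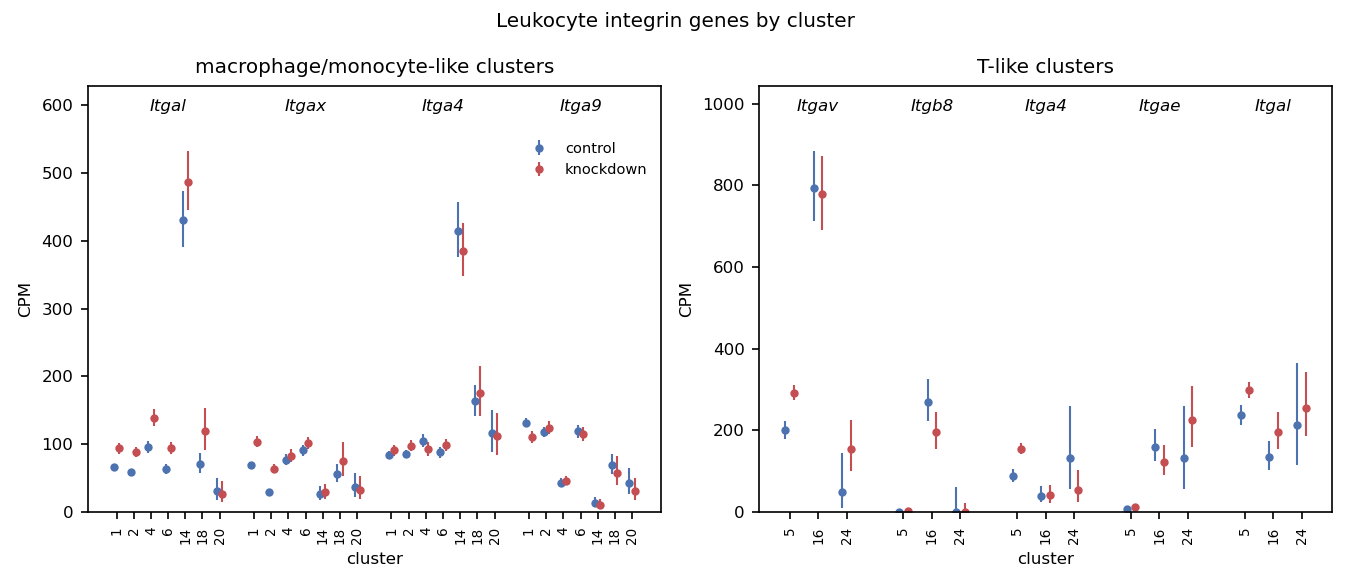
CPM of leukocyte integrin genes in 7 macrophage/monocyte-like clusters (left) and 3 T-like clusters (right), with control in blue, knockdown in red and bars for 95% Poisson intervals. Itgal and Itga4 are highest in cluster 14, and Itgav and Itgb8 in cluster 16, where Itgav has 794 and 778 CPM and Itgb8 270.3 and 195 CPM.

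NK-like cells, 284 in control and 500 in knockdown, had 13 members past 50 UMIs. Of these 0 were at least 1.5-fold higher and 0 lower, where 7.52% and 4.26% of all genes counted were, and their median log2 ratio was 0.14. The 5 of highest mean CPM were Itgb1 with 470.02 and 471 CPM (ratio 1.0, 0.903 to 1.11), Itgal with 226 and 258 CPM (ratio 1.14, 0.987 to 1.32), Itgav with 227 and 209.6 CPM (ratio 0.921, 0.790 to 1.07), Itga4 with 167 and 228 CPM (ratio 1.36, 1.16 to 1.61) and Itga1, a chain of tissue-resident cells, with 183 and 158 CPM (ratio 0.865, 0.725 to 1.03). Itga4 was the member whose interval lay above 1. Lamb3, known as an epithelial chain, was also counted in leukocytes, with 68.9 and 78.8 CPM (ratio 1.14, 0.874 to 1.5) in NK-like cells and 52.2 and 63.2 CPM (ratio 1.21, 0.959 to 1.54) in T-like cells. Its levels in neutrophil-like cells were 167 CPM (95.2 to 270.4) in control and 96.3 CPM (60.4 to 146) in knockdown, from 16 and 22 UMIs.

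Dendritic-like cells, 250 in control and 214 in knockdown, had 11 members past 50 UMIs. Of these 1 was at least 1.5-fold higher, where 6.10% of all genes counted were, and 1 lower, where 6.29% were. The 5 of highest mean CPM were Itga4 with 266 and 366 CPM (ratio 1.38, 1.17 to 1.62), Itgb1 with 206 and 228 CPM (ratio 1.11, 0.910 to 1.34), Itgb2 with 141 and 133 CPM (ratio 0.941, 0.731 to 1.21), Itgb7 with 125 and 102 CPM (ratio 0.816, 0.614 to 1.08) and Itgax with 105 and 115 CPM (ratio 1.1, 0.833 to 1.45). The lower member was Itgae, known as CD103, with 46.6 and 25.8 CPM (ratio 0.553, 0.313 to 0.934). In a subcluster with Xcr1 and Clec9a, genes of cross-presenting dendritic cells, Itgae had 40 UMIs in 20 control cells and 5 in 8 knockdown cells, at 219 and 154 CPM. The higher member was Itgal with 27.2 and 42.0 CPM (ratio 1.54, 0.929 to 2.55), whose interval held 1 and whose ratio was 0.945 in cells from 2000 UMIs. The Ccr7-rich subcluster 1 carried Itga4 at 932 and 1104 CPM (ratio 1.18, 0.935 to 1.49) and little Itgax, at 19 and 55.7 CPM. The class also held a subcluster of 10 and 13 cells led by the immunoglobulin gene Igkc and one of 6 and 10 cells led by tumour genes such as Hmga2.

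In neutrophil-like cells, 59 in control and 199 in knockdown, ratios were not read because of the small number. Itgam was 489 CPM (359 to 650.4) in control and 232 CPM (174 to 304) in knockdown. Itgb2 was 219 CPM (135 to 334) in control and 206 CPM (151 to 274) in knockdown, and Itgal was 260.2 CPM (168 to 384) in control and 131 CPM (88.6 to 188) in knockdown. Itgb1 was 83.3 CPM (35.9 to 164) in control and 184 CPM (133 to 249) in knockdown.

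Epidermis-like cells, 244 in control and 114 in knockdown, showed the receptor and ligand of the skin basement membrane together. Of 17 members past 50 UMIs, 10 were at least 1.5-fold higher in knockdown, where 9.72% of all 7169 genes counted were, and 0 were lower, where 9.97% were. Their median log2 ratio was 0.62, against 0.00 over all genes counted. Itga6 and Itgb4, the chains of the hemidesmosome receptor, had 213 and 328 CPM (ratio 1.53, 1.27 to 1.85) and 88.9 and 157 CPM (ratio 1.76, 1.33 to 2.33). Among the chains of its ligand, Lama3 had 98.5 and 151 CPM (ratio 1.53, 1.15 to 2.02) and Lamb3 had 43.0 and 78.4 CPM (ratio 1.82, 1.21 to 2.71). Itgb1 had 216 and 352 CPM (ratio 1.63, 1.35 to 1.95) and Itga2 had 73.6 and 147 CPM (ratio 1.99, 1.48 to 2.67). Itga5, Itgb8 and Itgbl1 were also counted as higher, at 24.9 and 38.2 CPM (ratio 1.53, 0.845 to 2.68), 25.5 and 44.2 CPM (ratio 1.74, 0.992 to 2.95) and 11.3 and 64.3 CPM (ratio 5.68, 3.15 to 10.5). The free-RNA level of Itgbl1 was 11.6 and 31.1 CPM. Lamb1, Lamc1 and Itgb5 were near 1, with ratios of 1.18 (0.851 to 1.60), 0.898 (0.622 to 1.27) and 1.14 (0.825 to 1.54).

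In the same cells the 12 epidermis markers summed to 9424 and 8685 CPM, with 0 of the 11 that passed 50 UMIs higher and 2 lower. The sum hides differences between them, since 5 of the 11 had a ratio above 1, with Krt15 highest at 1.45 (1.28 to 1.65). The 2 lower were Krtdap at 0.314 (0.188 to 0.497) and Krt17 at 0.557 (0.492 to 0.629). Whether the mix of epidermis-like cells differed between the libraries was not tested. The 12 tumour markers summed to 548 and 846 CPM, with 2 of the 7 that passed higher, 2 lower and 0 of 12 at 0. The sum includes Epcam at 112 and 129 CPM, a gene near 0 in tumour-like cells. The 2 higher were Hmga2 at 73.6 and 376 CPM (ratio 5.11, 4.06 to 6.44) and Rgs20 (ratio 1.53, 0.797 to 2.83). The 2 lower were Krt18 (ratio 0.469, 0.180 to 1.03) and Ogn (ratio 0.366, 0.170 to 0.702). The part of these markers in the value of Itgbl1 was not tested. When each cell was given the same weight, 5 members were past 1.5-fold in place of 10, and the ratios of Itga6 and Itgb1 were 1.15 and 1.27.

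Endothelial-like cells, 129 in control and 143 in knockdown, carried the vessel laminin. Of 16 members past 50 UMIs, 2 were at least 1.5-fold higher, where 8.01% of all genes counted were, and 1 lower, where 5.96% were. The 5 of highest mean CPM were Itgb1 with 639.5 and 597 CPM (ratio 0.933, 0.831 to 1.05), Lama4 with 339.9 and 313 CPM (ratio 0.920, 0.784 to 1.08), Lamc1 with 309 and 296 CPM (ratio 0.958, 0.812 to 1.13), Lamb1 with 276 and 242 CPM (ratio 0.876, 0.732 to 1.05) and Itga6 with 269 and 228 CPM (ratio 0.845, 0.702 to 1.01). The intervals of all of these held 1. Itga3, a laminin receptor chain, was lower at 62.1 and 33.5 CPM (ratio 0.540, 0.337 to 0.845). Lama3 and Itgb5 were higher at 17.6 and 52.7 CPM (ratio 2.99, 1.74 to 5.29) and 31.9 and 49.1 CPM (ratio 1.54, 0.966 to 2.46). The 12 epidermis markers summed to 30.2 and 37.1 CPM in these cells, with 4 of 12 at 0.

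Fibroblast-like cells, 205 in control and 216 in knockdown, were the class with the most Lama2, the laminin chain of muscle and nerve sheaths. Of 16 members past 50 UMIs, 1 was at least 1.5-fold higher, where 5.45% of all genes counted were, and 1 lower, where 5.99% were. The 5 of highest mean CPM were Itgb1 with 493 and 449.5 CPM (ratio 0.913, 0.820 to 1.01), Lamc1 with 285 and 329 CPM (ratio 1.15, 1.01 to 1.31), Lama2 with 232 and 265 CPM (ratio 1.15, 0.989 to 1.32), Itgb5 with 237 and 242 CPM (ratio 1.02, 0.876 to 1.18) and Lama4 with 248 and 227 CPM (ratio 0.913, 0.785 to 1.06). The lower member was Itgbl1, at 166 and 97.4 CPM (ratio 0.585, 0.470 to 0.725), with a free-RNA level of 4.61 and 26.4 CPM. The higher member was Itgam at 12 and 40.1 CPM (ratio 3.34, 2.0 to 5.75), with a free-RNA level of 8.91 and 21.1 CPM. In these cells the 15 macrophage markers summed to 659 and 1534 CPM, with 9 of the 10 that passed higher and 0 of 15 at 0, and their part in the value of Itgam was not tested.

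Pericyte/smooth muscle-like cells, 58 in control and 45 in knockdown, had the highest Itga1 of any class, the collagen receptor chain of smooth muscle. Ratios were not read in so few cells. Itga1 was 821 CPM (746 to 901) in control and 1020.4 CPM (899 to 1154) in knockdown, and Itgb1, its partner, was 715 CPM (646 to 790.4) in control and 743 CPM (639.99 to 858) in knockdown. Itgb5, Lama4 and Lamc1 followed with 226 and 209 CPM, 185 and 233 CPM and 148 and 237 CPM.

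**Figure D5:**
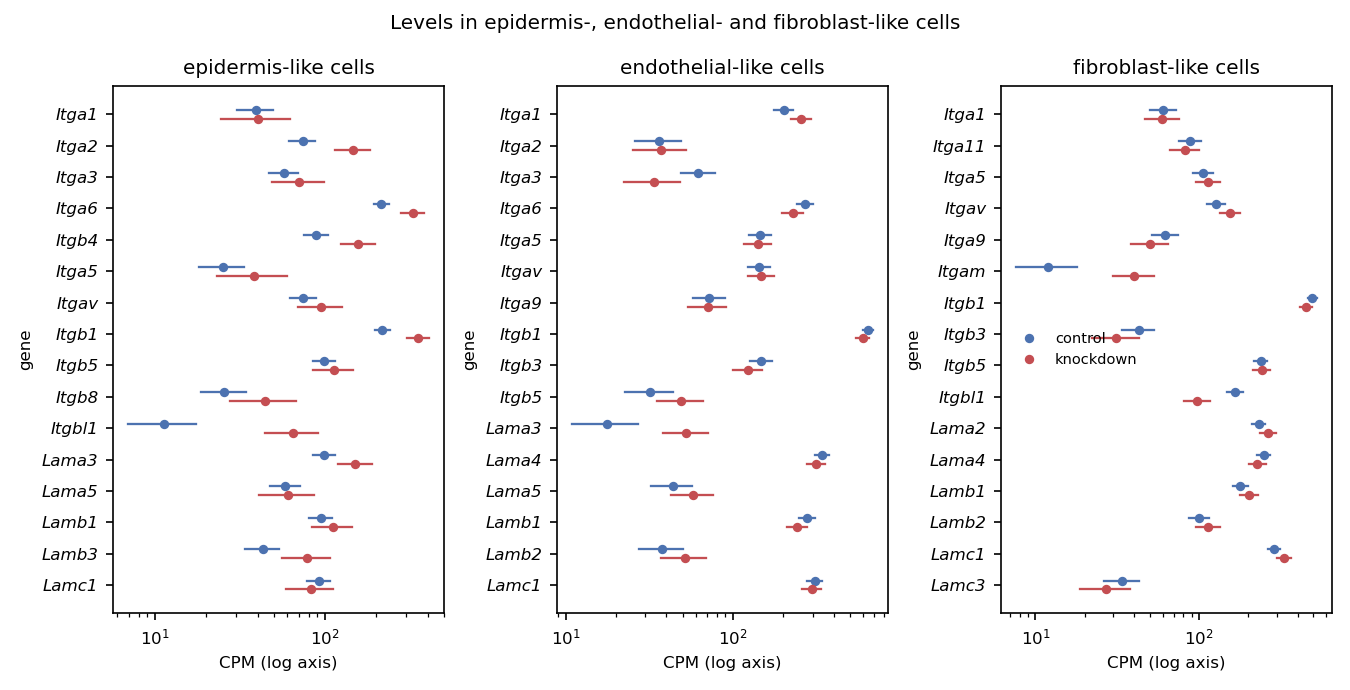
Points give the CPM on a log axis and lines the 95% Poisson interval of members with at least 50 UMIs in epidermis-, endothelial- and fibroblast-like cells, with control in blue and knockdown in red. In epidermis-like cells Itga6, Itgb4 and Itgb1 lie further right in knockdown with intervals that do not overlap, whereas in endothelial-like cells Lama4 lies at 339.9 and 313 CPM and Itgb1 at 639.5 and 597 CPM.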

How the data were processed

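Single-cell 3' RNA-seq (10x) was read from 1 control and 1 knockdown library. The values are UMI counts per gene and barcode as deposited, made with Cell Ranger 4 per the file headers, with barcodes not filtered for cells. For the counting, the genome build and the strand setting were not given in the sources used here.

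Barcodes were kept as cells from 500 UMIs, 250 genes and at most 20% mitochondrial UMIs, and those under 3000 UMIs had to differ from the profile of barcodes with up to 100 UMIs at a false discovery rate of 0.01. Doublets were scored with an own implementation of the Scrublet method, which called 349 control and 683 knockdown barcodes, and were removed. Cells were clustered on 30 principal components of 2000 variable genes, from which the 39 members were left out, with the Leiden method (leidenalg 0.10.2, igraph 0.11.9, scikit-learn 1.9.0) under python 3.11. Clusters were named from marker lists, and these names are rebuilt and not the study's. The unnamed clusters are not described.

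UMIs were summed per class and library. Level intervals are exact Poisson intervals and ratio intervals are exact conditional (Clopper-Pearson) intervals from scipy 1.17.1. They cover counting error only, since 1 library per group leaves no replicates. Free RNA was estimated from the barcodes with up to 100 UMIs, scaled by genes that a class should lack. The scripts were tested on simulated data. A single member is counted in the totals and is otherwise not reported here. In tumour-like and macrophage/monocyte-like cells the other members from 50 UMIs are described, in other classes the 5 highest and those past 1.5-fold, and of the partner genes the 3 most abundant and the 3 highest and lowest ratios. A few more genes, such as Postn, Fermt2 and Lamb3 in leukocytes, were named after their values were seen. The members and lists were chosen with earlier results of these data known.

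Promoters came from RefSeq (GRCm38.p6) and gene overlaps from GENCODE vM21. Alternatives were cells from 2000 UMIs, equal cell weight, another clustering seed, members kept among the variable genes, doublets kept and free RNA subtracted. Others were scaling by the median ratio, other UMI minimums, a 2-fold threshold, equal cluster weight and the top cell left out. Ratios were also computed without tumour cluster 12 and without macrophage/monocyte-like clusters 18 and 20. For T-like and dendritic-like cells, the subclusters led by genes of other cell types were likewise left out.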

Additional observations from a re-analysis of the deposited data

Results flagged for a closer look

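The knockdown/control ratio of Itgbl1 lay on opposite sides of 1 in different cell classes. It was 2.25 in tumour-like cells, 4.99 in macrophage/monocyte-like cells, 4.09 in T-like cells and 5.68 in epidermis-like cells, but 0.585 in fibroblast-like cells, with every interval on its own side of 1. The difference between classes was not tested, because there is 1 library per group. In macrophage/monocyte-like and T-like cells both levels of Itgbl1 lay below the free-RNA level, in epidermis-like cells the control level did, and in fibroblast-like cells both levels, 166 and 97.4 CPM, lay above it, at 4.61 and 26.4 CPM.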

How the results depend on the processing

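No paired analysis was possible because each group has 1 library, and no replicate could be left out. Of 41 ratios past 1.5-fold, 357 alternative values were computed, and 354 stayed on the same side of 1. Ratios lost because free RNA subtraction left nothing in 1 or both libraries are not among the 357. The members lost were Itga9 in tumour-like cells and Itgbl1 in macrophage/monocyte-like, T-like and epidermis-like cells. Lamb1 was lost in macrophage/monocyte-like and T-like cells. Of these 354, 334 lay within the counting interval of the main ratio and 20 lay outside it. A value on the same side of 1 need not stay past 1.5-fold. At equal cluster weight in tumour-like cells, for example, Itgb8 had a ratio of 0.784 and Itga10 of 1.47. The 3 that changed side were Itga9 in tumour-like cells at equal cell weight (1.13), Itgal in tumour-like cells with free RNA subtracted (0.657) and Itgal in dendritic-like cells from 2000 UMIs per cell (0.945). The cause was not tested. With free RNA subtracted, the count of lower members went from 3 to 5 in tumour-like and from 0 to 1 in macrophage/monocyte-like cells. In tumour-like cells Itga9 dropped out, Itgb8 and Lama4 stayed, and Itga3, Itgb3 and Itgal entered, of which Itgal was counted as higher before. In macrophage/monocyte-like cells the lower member was Lamc1. This subtraction was not run for dendritic-like and endothelial-like cells, where fewer than 10 genes gave the estimate. At equal cell weight, members past the threshold numbered 4 in fibroblast-like (from 2) and 5 in epidermis-like cells (from 10). In dendritic-like cells (from 2) the count was 1 from 2000 UMIs per cell, with members among the variable genes, with another clustering seed and with doublets kept. In NK-like cells (from 0) it was 1 with doublets kept.

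A 2-fold threshold left 1 lower and 7 higher members in tumour-like cells, 2 higher in macrophage/monocyte-like cells, 0 in dendritic-like, and 1 each in fibroblast-like, endothelial-like and epidermis-like cells. A minimum of 20 UMIs gave 1 lower and 8 higher in macrophage/monocyte-like cells, 4 in NK-like, 5 in dendritic-like, 10 in fibroblast-like and 6 in endothelial-like cells. With 1 UMI in each library, these were 2 lower and 10 higher, 11, 11, 17 and 10, with 16 in T-like and 18 in epidermis-like cells, since more members of low count entered.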
